A study of Rattus norvegicus with 9 samples.

Results

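The genes described here carry glucose into the cell, commit it to glycolysis and send its end product out as lactate. They were taken by gene symbol from the deposited count table, and all 10 chosen symbols (Slc2a1, Slc2a3, Hk1, Hk2, Pfkfb3, Pfkl, Aldoa, Pgk1, Ldha and Slc16a3) were among its 37203. The table holds RNA counts of the superior mesenteric artery (SMA), the vessel that feeds most of the small intestine, of Sprague-Dawley rats aged 8 weeks. There were 9 libraries in 3 groups of 3: a normal group, a group taken after 1 h of ischemia and a group taken after 4 h of ischemia. Ischemia was produced by bleeding through a catheter in the femoral artery, under pentobarbital anaesthesia, and time ran from the end of that procedure. No genetic change is named for these rats, and the sources used here do not say whether the normal rats were anaesthetised or catheterised. The design text gives 3 rats to each group, while the methods speak of 3 individuals over the 3 conditions. The methods also state that rats were killed when ischemia ended and the artery was then removed, so a rat could not supply both ischemia times. The p-values below treat the 9 libraries as independent.

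Glucose enters cells through carriers of the GLUT family and is trapped by hexokinases as glucose phosphate. Phosphofructokinase then commits it to glycolysis, aldolase and phosphoglycerate kinase carry it on to pyruvate with a gain of ATP, and lactate dehydrogenase turns pyruvate into lactate, which leaves the cell through monocarboxylate carriers. When oxygen is short, this route makes ATP without respiration, and the transcription factor HIF-1 is known to raise the transcription of most of these genes through a short DNA element, the hypoxia response element.

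All 10 smooth muscle markers were detected in every group, with a summed level of 11445 to 69706 CPM (counts scaled to a common library size) over the 9 libraries. Total counts were 13114273 to 15504240 per library, so 1 CPM after scaling stood for 12.1 to 17.9 counts. The libraries differed in tissue makeup. All 19 sympathetic neuron markers passed the low-count filter and none was at 0 in a whole group. Their summed level was 37.7 to 705 CPM in the normal group, 1022 to 9490 at 1 h and 53.2 to 9349 at 4 h, and 3 libraries (1 h replicates 1 and 3 and 4 h replicate 3) stood apart with a mean log2 CPM of 8.02 to 8.12, against 4.95 at most in the other 6. In the same 3 libraries the share of counts from mitochondrial genome genes ranged from 9.10% to 21.3%, and over all 9 from 9.10% to 29.3%. Neurons are heavy users of glucose. The fits with and without these libraries are given below. In whole tissue, fewer cells of a type and less RNA per cell cannot be told apart.

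The promoters of 4 genes are printed because they span the range found, from many copies of the core of the hypoxia response element to none. RefSeq promoter windows of assembly GRCr8, from 250 bases before to 50 bases after the gene's start, were matched by symbol for 8 of the 10 genes (Slc2a3 and Pgk1 had no entry). The build behind the counts is not given in the sources used here, so these positions belong to RefSeq alone. Capitals mark the core, ACGTG or GCGTG, on either strand. On the opposite strand it reads CACGT or CACGC, and 2 overlapping copies make the palindrome CACGTG, which is also the E-box bound by other factors.
Ldha, chr1:106507842-106508141, plus strand: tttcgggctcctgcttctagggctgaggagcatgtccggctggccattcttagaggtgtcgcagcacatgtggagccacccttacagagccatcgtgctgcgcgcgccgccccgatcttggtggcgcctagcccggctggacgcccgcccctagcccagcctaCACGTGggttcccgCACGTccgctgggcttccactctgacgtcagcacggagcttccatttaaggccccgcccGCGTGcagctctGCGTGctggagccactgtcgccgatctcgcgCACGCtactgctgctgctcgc
Slc2a1, chr5:138002272-138002571, plus strand: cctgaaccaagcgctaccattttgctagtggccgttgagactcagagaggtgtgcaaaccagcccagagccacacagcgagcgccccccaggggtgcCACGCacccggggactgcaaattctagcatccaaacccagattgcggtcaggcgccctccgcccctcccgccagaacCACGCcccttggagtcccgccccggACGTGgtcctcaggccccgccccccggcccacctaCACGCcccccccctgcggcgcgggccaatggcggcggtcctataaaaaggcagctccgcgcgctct
Pfkfb3, chr17:71944683-71944982, plus strand: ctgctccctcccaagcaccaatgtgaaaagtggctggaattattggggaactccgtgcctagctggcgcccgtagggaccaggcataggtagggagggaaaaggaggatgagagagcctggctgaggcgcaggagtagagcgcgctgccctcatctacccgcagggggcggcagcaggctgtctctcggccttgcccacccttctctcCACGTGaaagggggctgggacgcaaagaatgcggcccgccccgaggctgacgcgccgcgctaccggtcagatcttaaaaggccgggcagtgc
Hk2, chr4:116841226-116841525, minus strand: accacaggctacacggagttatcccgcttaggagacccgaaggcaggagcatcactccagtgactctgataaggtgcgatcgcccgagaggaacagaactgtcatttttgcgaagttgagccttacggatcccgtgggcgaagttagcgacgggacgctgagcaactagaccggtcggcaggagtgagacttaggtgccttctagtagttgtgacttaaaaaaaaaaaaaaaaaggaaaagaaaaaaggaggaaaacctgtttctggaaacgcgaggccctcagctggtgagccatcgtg

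Ldha held 6 cores, of which 2 formed 1 E-box at 87 bases before the start. Slc2a1 held 4, Pfkl held 2 at 215 and 160 bases before the start, and both copies in Pfkfb3 formed 1 E-box. No core was found in the windows of Hk2 and Slc16a3. Hk1 has 2 windows and Aldoa 3, for different starts, and 1 window of each held a single core. In all, 6 of the 11 windows (54.5%) held a core, against 41.6% of the 33469 windows of the RefSeq table, and 2 of the 11 held at least 3, against 8.15%. These counts describe letters and say nothing of binding in this artery.

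The comparison of the 1 h group with the normal group asks which of these genes had changed early after blood loss. None of the 9 genes past the low-count filter passed the test, edgeR's quasi-likelihood test with an adjusted p under 0.05 and a fold change over 1.5, which called 0.0581% of all 15482 genes tested. Of the 9, 8 had a higher fitted level at 1 h. Before adjustment 4 genes (Hk1, Hk2, Pfkfb3 and Pfkl) had a p under 0.05, all in the higher direction, as did 7.98% of all genes, and 16.7% of all genes reached that p in either direction. DESeq2 also called 0 of the 9, against 702 of all 15482 genes. It had 6 of the 9 at an unadjusted p under 0.05, which 21.3% of all genes reached in DESeq2 in either direction. The median log2 difference of the 9 genes was 0.63, beside -0.008 for all genes tested.

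The 4 h group is the late stage. No gene of the 9 was called, where 0.0904% of all genes were, and none had an unadjusted p under 0.05, where 12.4% of all genes did. DESeq2 likewise called 0, with 0 at an unadjusted p under 0.05, where 15.4% of all genes reached that p in DESeq2. No gene of the 9 had libraries apart from the normal ones in this group, against 18.7% of all genes. Fitted levels were higher in 7 of the 9, and their median log2 difference was 0.43 beside 0.03 for all genes. The order of the medians at 1 h and 4 h was not the same in every fit. With the neuron score as a covariate they were 0.32 and 0.39. Without the 3 libraries rich in neuron markers, which leaves a single library at 1 h, they were 0.27 and 0.23. When the mean of both ischemia groups was set against normal, 0 of 9 were called (0.426% of all genes). Hk1 and Pfkl, 2 of the 9, had an unadjusted p under 0.05 in the higher direction (7.19% of all genes, and 17.1% in either direction). None of the 9 had all 6 ischemia libraries on one side of the normal ones (10.8% of all genes), and the median was 0.54 beside 0.003 for all genes. DESeq2 called 0 there, with 5 of 9 at an unadjusted p under 0.05. Since these comparisons share the normal libraries, their values are not independent of each other.

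**Figure D1:**
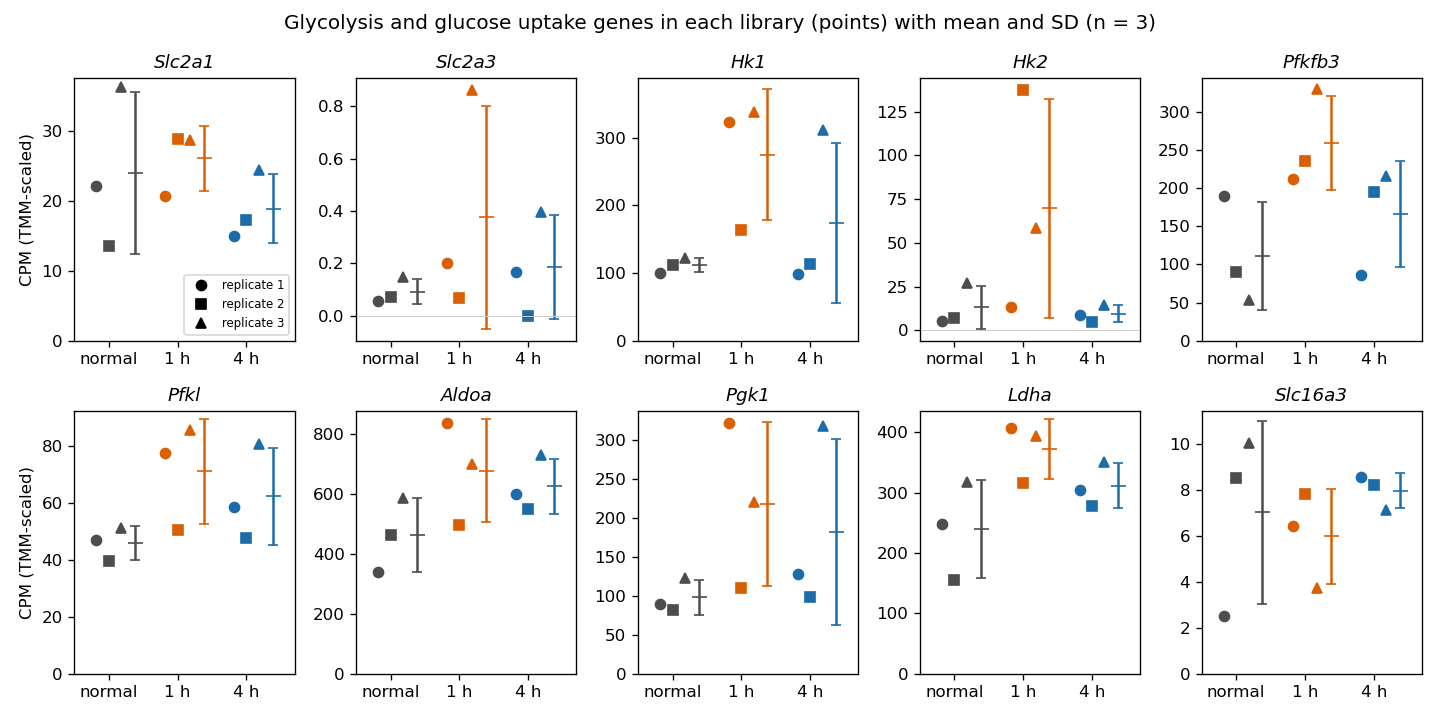
Level of each of the 10 genes in each library, in CPM after TMM scaling (y axis, starting at or just below 0), by group (x axis: normal, 1 h and 4 h of ischemia). Marker shapes give the replicate number, and the horizontal mark with its bar is the mean and SD of the 3 libraries. Hk1, Pgk1, Pfkl, Aldoa and Ldha are high in 1 h replicates 1 and 3 and 4 h replicate 3, while Hk2 is highest in 1 h replicate 2.

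No difference in the glucose carriers was detected. Slc2a1, the carrier GLUT1 that serves basal glucose entry in most tissues, measured 22.2, 13.5 and 36.4 CPM in normal replicates 1 to 3, 20.8, 28.9 and 28.8 CPM at 1 h and 15.05, 17.2 and 24.5 CPM at 4 h. The 3 groups overlapped, and the normal group alone spanned nearly the whole range. The log2 difference was 0.12 at 1 h (SE 0.36, 95% interval -0.71 to 0.96) and -0.34 at 4 h (SE 0.37, interval -1.18 to 0.49). A rise of about 1 log2 unit thus lies near the limit at 1 h, and a fall of that size lies within the interval at 4 h. Adjusted p-values from edgeR were 0.873 and 0.716. Its sign at 1 h turned to -0.22 with the sympathetic neuron score as a covariate.

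Slc2a3, the high-affinity carrier GLUT3 of neurons and white blood cells, was almost absent. It had 1, 1 and 2 counts in the normal libraries, 3, 1 and 14 at 1 h and 2, 0 and 6 at 4 h. It failed the low-count filter and was not tested. The highest count, 14, and the next, 6, fell in 2 of the 3 neuron-rich libraries, and the third had 3. The single 0 allows a level of up to 0.249 CPM, by a floor of 3 counts that covers counting error only.

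Hexokinases trap glucose in the cell. Hk1, the broadly expressed isoform, measured 101, 112 and 122 CPM in the normal group, a narrow range. At 1 h it measured 324, 163 and 338 CPM, all above every normal library. At 4 h it measured 98.3 and 113 CPM in replicates 1 and 2, within or below the normal range, and 311 CPM in replicate 3. The log2 difference at 1 h was 1.30 (SE 0.47, interval 0.22 to 2.38), with an unadjusted p of 0.0240 and an adjusted p of 0.271 from edgeR. Hk1 and Pfkfb3 were the 2 of 9 genes whose libraries at 1 h all lay above the normal ones, a pattern seen in 12.8% of all genes tested. The 4 h difference of Hk1 was 0.64 (SE 0.47, adjusted p 0.593) and became -0.08 without 4 h replicate 3.

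Hk2, the inducible isoform of muscle and fat that binds mitochondria, measured 5.26, 7.08 and 27.1 CPM in the normal group, 13.6, 137 and 58.4 CPM at 1 h and 9.01, 4.81 and 14.7 CPM at 4 h. The top level lay in 1 h replicate 2, which is not one of the neuron-rich libraries, and 1 h replicate 1 lay below normal replicate 3, so the groups overlapped. The log2 difference at 1 h was 2.41 (SE 0.92, interval 0.30 to 4.51), a fitted ratio of 5.31, with an unadjusted p of 0.0297 and an adjusted p of 0.280. It was 1.45 without 1 h replicate 2 (unadjusted p 0.14) and 3.50 without normal replicate 3. At 4 h it was -0.47 (SE 0.88, adjusted p 0.857).

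The comparison of 4 h with 1 h asks whether the stages differ from each other. Again 0 of the 9 genes were called, as were 0% of all genes, and no gene of the 9 had libraries that did not overlap between the stages, a pattern seen in 6.24% of all genes. At an unadjusted p under 0.05 there was 1 gene of the 9, Hk2, where 2.58% of all genes reached that p. Its log2 difference, 4 h minus 1 h, was -2.87 (SE 0.94, interval -5.02 to -0.73), with an unadjusted p of 0.0148 and an adjusted p of 0.856. DESeq2 called 0 genes of the 9 and had 1, Hk2, at an unadjusted p under 0.05 (3.68% of all genes in DESeq2). The other 8 genes had differences between -0.66 and 0.41, and 7 of these were lower at 4 h.

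**Figure D2:**
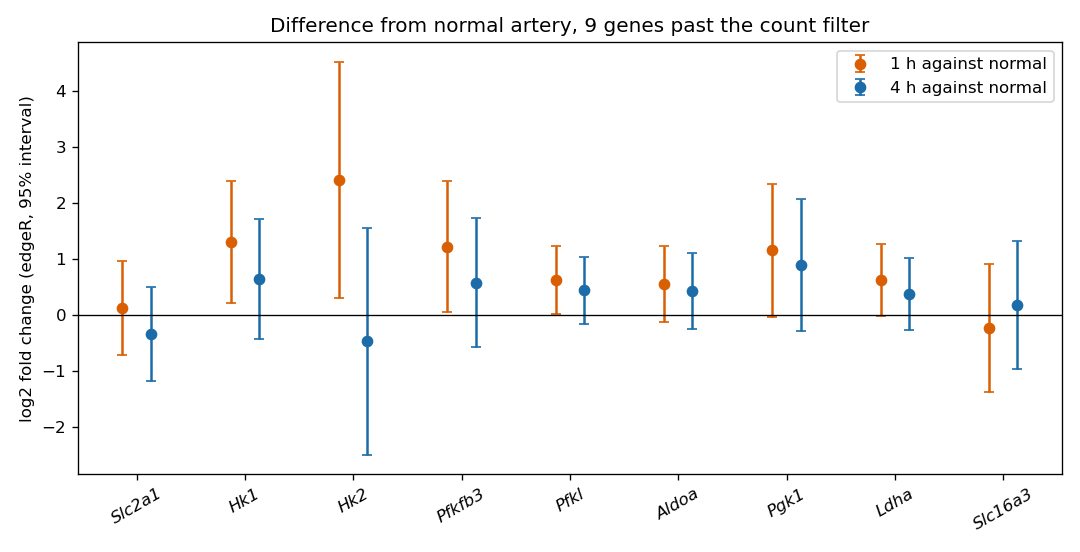
Log2 fold change of the 9 genes past the count filter (x axis) at 1 h (orange) and 4 h (blue) against the normal group, from edgeR, with 95% intervals (y axis). The 1 h intervals of Hk1, Hk2, Pfkfb3 and Pfkl lie above 0, while every 4 h interval spans 0.

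Phosphofructokinase is the main control point of the route. Pfkfb3 makes the sugar bisphosphate that switches phosphofructokinase on, and its transcript is known to be short-lived and quickly induced. It measured 191, 89.8 and 52.7 CPM in the normal group, 213, 236 and 330.1 CPM at 1 h and 86.5, 195 and 217 CPM at 4 h. The 3 libraries at 1 h lay above all normal ones, though 213 CPM was close to the normal maximum of 191. The log2 difference was 1.22 at 1 h (SE 0.51, interval 0.06 to 2.39, adjusted p 0.293) and 0.58 at 4 h (SE 0.50, adjusted p 0.653). Normal replicate 1 bears on this value most, as the 1 h difference was 1.86 without it and 0.89 without normal replicate 3.

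Pfkl, the liver-type subunit of phosphofructokinase itself, measured 47.0, 39.5 and 51.0 CPM in the normal group, 77.3, 50.3 and 85.6 CPM at 1 h and 58.5, 47.4 and 80.7 CPM at 4 h. Replicate 2 of each ischemia group lay inside the normal range. The log2 difference was 0.63 at 1 h (SE 0.26, interval 0.03 to 1.24, unadjusted p 0.0426, adjusted p 0.293) and 0.44 at 4 h (SE 0.26, adjusted p 0.534).

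The middle of the route was represented by aldolase and phosphoglycerate kinase. Aldoa, the muscle aldolase that splits fructose bisphosphate, measured 341, 461 and 587 CPM in the normal group, 837, 496 and 701 CPM at 1 h and 598, 549.9 and 728 CPM at 4 h. Its groups overlapped, with a log2 difference of 0.55 at 1 h (SE 0.30, interval -0.13 to 1.23) and 0.43 at 4 h (SE 0.30, interval -0.24 to 1.11). Pgk1, which forms the first ATP of glycolysis, measured 89.1, 81.1 and 123 CPM in the normal group, 322, 110.3 and 220.4 CPM at 1 h and 128, 97.9 and 318 CPM at 4 h. The log2 difference was 1.16 at 1 h (SE 0.52, interval -0.03 to 2.34, adjusted p 0.304) and 0.89 at 4 h (SE 0.52, adjusted p 0.520), and stood at 0.76 without 1 h replicate 1 and 0.21 without 4 h replicate 3. The high Pgk1 libraries were again the neuron-rich ones: the other libraries, of all 3 groups, ranged only from 81.1 to 128 CPM.

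The route ends with lactate. Ldha, the lactate dehydrogenase subunit that favours pyruvate reduction, measured 248, 155 and 317 CPM in the normal group, 407, 316 and 393 CPM at 1 h and 305, 278 and 352 CPM at 4 h. The lowest library at 1 h, 316 CPM, fell just under the highest normal one, so the groups touched. The log2 difference was 0.63 at 1 h (SE 0.28, interval -0.01 to 1.27, unadjusted p 0.0527, adjusted p 0.303) and 0.38 at 4 h (SE 0.28, adjusted p 0.60). Without normal replicate 2, the lowest library, the 1 h value was 0.38. Slc16a3, the lactate exporter MCT4 of glycolytic cells, was scarce, at 2.52, 8.54 and 10.05 CPM in the normal group, 6.42, 7.82 and 3.75 CPM at 1 h and 8.60, 8.21 and 7.13 CPM at 4 h. It showed no shift beyond the spread, with log2 differences of -0.23 at 1 h (SE 0.50, interval -1.36 to 0.91) and 0.18 at 4 h (SE 0.50, interval -0.95 to 1.32). Aldoa, Pgk1 and Ldha carry a counting limit, because RefSeq names 9, 8 and 30 pseudogenes after them in GRCr8 and how the authors' counting split reads among such copies is not given in the sources used here.

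Several of these genes were high in the neuron-rich libraries of both ischemia times. No normal library was neuron-rich, so this grouping does not separate neuron content from ischemia. In 5 of the 9 (Hk1, Pfkl, Aldoa, Pgk1 and Ldha), 1 h replicates 1 and 3 and 4 h replicate 3 held the 3 highest levels of all 9 libraries, a pattern shown by 18.01% of all genes tested. Hk1 measured 311 to 338 CPM in those libraries and 98.3 to 163 CPM in the other 6, Pgk1 measured 220.4 to 322 CPM against 81.1 to 128 CPM, and Aldoa measured 701 to 837 CPM against 341 to 598 CPM. Slc2a1, Hk2, Pfkfb3 and Slc16a3 did not show it. The grouping into 3 and 6 libraries came from the neuron markers after the data were seen and was given no test.

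**Figure D3:**
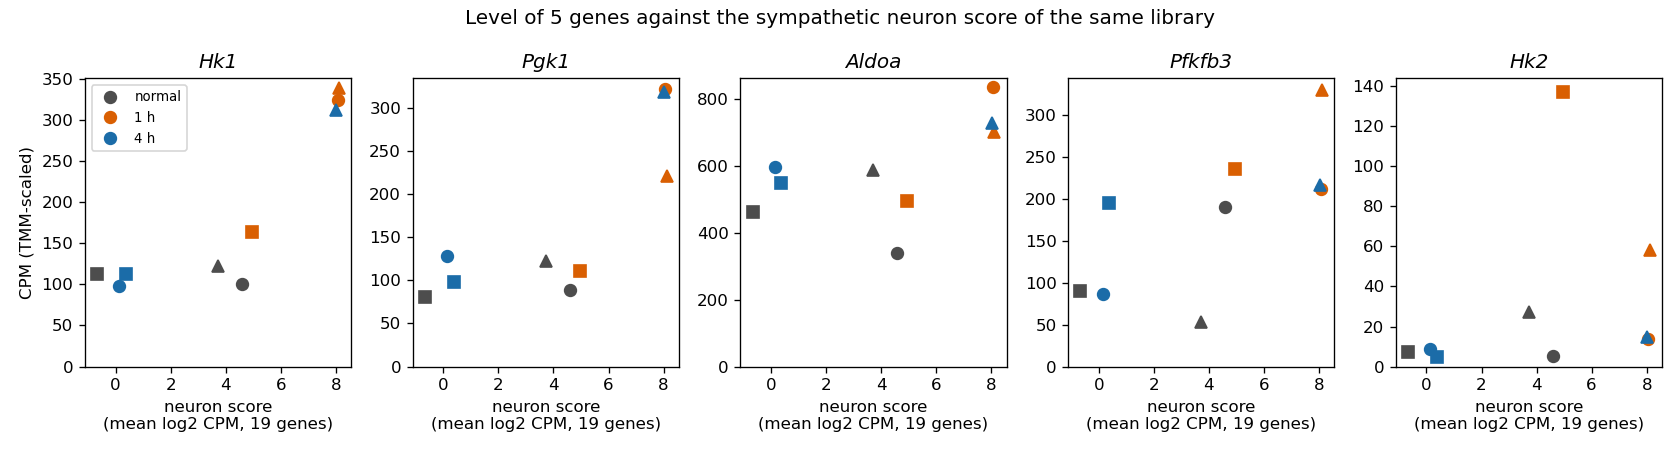
Level of 5 genes in CPM (y axes, starting at 0) against the sympathetic neuron score, the mean log2 CPM of 19 marker genes, of the same library (x axes). Colours give the group and shapes the replicate number. For Hk1, Pgk1 and Aldoa the 3 libraries with a score over 8 are the highest, including the 4 h library, while Hk2 peaks in a 1 h library with a score of 4.95.

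The neuron score of every 1 h library (4.95 to 8.12) lay above that of every normal library (-0.67 to 4.59). A fit with this score as a covariate therefore cannot separate the score from the 1 h group. With the neuron score as a covariate, the median log2 difference of the 9 genes at 1 h was 0.32. In that edgeR fit 0 of 9 had an unadjusted p under 0.05, which 9.70% of all genes reached. Hk1 stood at 0.48 in place of 1.30, Pgk1 at 0.26 in place of 1.16 and Pfkl at 0.22 in place of 0.63. Hk2 stood at 2.24 (unadjusted p 0.055) and Pfkfb3 at 0.83. Without the 3 libraries the 1 h group is a single library, replicate 2, which is assumed to vary like the others. The median was then 0.27, and Hk1 stood at 0.56, Pgk1 at 0.18, Aldoa at 0.10, Pfkfb3 at 1.12 and Hk2 at 3.37 (unadjusted p 0.0092, adjusted p 0.435). That single 1 h library holds the top Hk2 level. At 4 h the same step left a median of 0.23, with Hk1 at -0.07 and Pgk1 at 0.22. Markers of other cell types differed as well, with 0 called in any list. All 10 smooth muscle markers had lower fitted levels at 1 h (median log2 difference -0.38) and higher ones at 4 h (0.35). Of 9 endothelial markers, 8 were lower at 1 h and 9 at 4 h (medians -0.44 and -0.66), with 2 at an unadjusted p under 0.05 each time. That p was reached in either direction by 16.7% of all genes at 1 h and 12.4% at 4 h. Of 9 macrophage markers, 9 were lower at 4 h (median -0.69). The 11 adipocyte markers summed to 581 to 3003 CPM in the normal group, 1187 to 2892 CPM at 1 h and 516 to 1415 CPM at 4 h, with 1 marker at 0 throughout the normal group. With the adipocyte score as a covariate the 1 h median was 0.47 and Hk2 stood at 3.11. The part of the other cell types in these results was not tested.

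**Figure D4:**
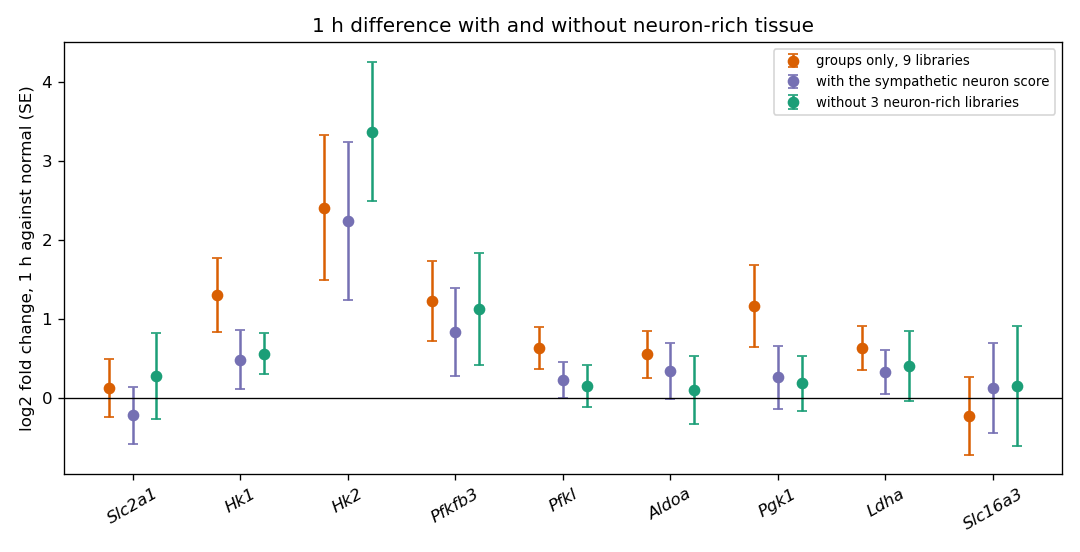
Log2 fold change of the 9 genes at 1 h against normal (y axis) under 3 edgeR fits: groups only with all 9 libraries (orange), with the sympathetic neuron score as a covariate (violet), and without the 3 neuron-rich libraries (green), with bars for 1 SE. Hk1, Pgk1, Pfkl, Aldoa, Ldha and Pfkfb3 move toward 0 in the last 2 fits, Pfkfb3 to 0.83 and 1.12. Hk2 stands at 2.24 and 3.37, the latter with a single 1 h library, the one with the top Hk2 level.

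The remaining enzymes of glycolysis had a median close to that of the genes above. Of 18 listed, 13 passed the filter, 0 were called at 1 h, and 11 had higher fitted levels with a median log2 difference of 0.64. At an unadjusted p under 0.05 there were 2, Eno1 (0.91, SE 0.34, adjusted p 0.275), an enolase, and Pkm (0.79, SE 0.30, adjusted p 0.282), the pyruvate kinase of most tissues. Of all genes tested, 16.7% reached that p at 1 h in either direction, a share that 2 of 13 does not exceed. At 4 h 11 of 13 were again higher, 0 had an unadjusted p under 0.05 (12.4% of all genes) and the median was 0.52. In 9 of the 13 the neuron-rich libraries held the 3 highest levels, a pattern shown by 18.01% of all genes tested. Eno1 stood at 270 to 284 CPM in those libraries against 109 to 194 CPM elsewhere, and Pkm at 347 to 392 CPM against 146 to 260.0 CPM. RefSeq names 32 pseudogenes after Eno1 and 19 after Pkm.

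The other glucose carriers were split. Of 7 tested, 2 had an unadjusted p under 0.05 at 1 h in opposite directions, where 16.7% of all genes reached that p. Slc2a10, a carrier of the arterial wall, measured 8.40, 18.9 and 19.6 CPM in the normal group and 8.36, 3.74 and 2.27 CPM at 1 h (log2 difference -1.71, SE 0.57, adjusted p 0.255). Slc2a6 stood at 0.66 to 2.44 CPM in the normal group and at 20.5, 3.74 and 19.8 CPM at 1 h, with the high values again in the neuron-rich libraries (3.01, SE 1.22, adjusted p 0.289). At 4 h Slc2a9, which also carries urate, stood at -0.83 (SE 0.25, adjusted p 0.233). The enzymes that set the level of the activating sugar bisphosphate, other than Pfkfb3, gave 1 of 3 at an unadjusted p under 0.05, Pfkfb2 at 4 h (-0.48, SE 0.20, adjusted p 0.390). Of all genes, 12.4% reached that p at 4 h.

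At the gate between glycolysis and the mitochondrion, all 6 ischemia libraries lay on one side of the 3 normal ones for 4 of 14 genes, Pdk4, Pdha1 and Pdhb above and Pdk1 below, beside 10.8% of all genes. Pdk4, the kinase that shuts pyruvate dehydrogenase, measured 81.5, 194 and 70.9 CPM in the normal group, 248, 406 and 296 CPM at 1 h and 504, 844 and 275 CPM at 4 h. Every ischemia library lay above every normal one. The log2 difference was 1.46 at 1 h (SE 0.51, adjusted p 0.263) and 2.23 at 4 h (SE 0.53, adjusted p 0.157) in edgeR. It passed the test at 4 h under DESeq2 (adjusted p 0.0012) and in edgeR with the neuron score as a covariate (2.31, adjusted p 0.0205). Those fits called 606 and 122 of all 15482 genes at 4 h, against 14 in the main edgeR fit. Pdha1 and Pdhb, subunits of the enzyme that Pdk4 inhibits, also lay above normal in all 6 ischemia libraries, with Pdha1 at 125 to 164 CPM in the normal group and 212 to 241 CPM afterwards (1 h 0.67, SE 0.17, adjusted p 0.210, and 4 h 0.65, SE 0.17, adjusted p 0.186). Pdk1, a kinase of the same family, measured 30.3 to 38.9 CPM in the normal group and 25.3 to 27.7 CPM in the ischemia libraries, with a log2 difference of -0.37 at 4 h (SE 0.16, adjusted p 0.383), and Mpc2, a part of the mitochondrial pyruvate carrier, was higher at 4 h than at 1 h (0.54, SE 0.21, adjusted p 0.856). In this list of 14 genes for lactate and pyruvate handling, an unadjusted p under 0.05 was reached at 1 h by 3 genes in the higher and 0 in the lower direction, and at 4 h by 3 and 1, and 0 were called by edgeR. In the higher direction 7.98% of all genes reached that p at 1 h and 5.07% at 4 h. In either direction the shares were 16.7% and 12.4%.

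Glycogen genes stayed near 0 as a list, with a median of -0.17 over 10 genes at 1 h and -0.004 at 4 h. Ppp1r3b, which brings a phosphatase to glycogen, measured 18.03, 24.1 and 24.4 CPM in the normal group, 16.3, 19.4 and 14.4 CPM at 1 h and 8.93, 6.96 and 9.24 CPM at 4 h. All libraries at 4 h lay below all others, with a log2 difference from normal of -1.40 (SE 0.22, adjusted p 0.0702 in edgeR and 1.54e-05 in DESeq2) and from 1 h of -0.995 (SE 0.22, adjusted p 0.856). In edgeR it passed the test against normal with the neuron score (-1.40, adjusted p 0.0442) or the adipocyte score (-1.35, adjusted p 0.0390) as a covariate. Those 2 fits called 122 and 159 of all 15482 genes at 4 h, against 14 with no covariate.

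Genes that HIF-1 is known to raise outside glycolysis gave 17 tested, of which 4 (higher) and 3 (lower) had an unadjusted p under 0.05 at 1 h, and 4 and 2 at 4 h, with medians of 0.35 and 0.26. Of all genes tested, 16.7% reached that p at 1 h and 12.4% at 4 h, in either direction. The 4 named for 1 h had the smallest p and were all higher, so the 3 lower ones are not named for 1 h. Ddit4, an inhibitor of the growth kinase mTORC1 that also answers to glucocorticoids, measured 64.9, 29.7 and 67.2 CPM in the normal group, 124, 277 and 190.3 CPM at 1 h and 227, 379.8 and 185 CPM at 4 h. Vegfa, the main growth factor of vessels, stayed between 70.5 and 74.2 CPM in the normal group and measured 154, 93.6 and 128 CPM at 1 h and 223, 150.2 and 145 CPM at 4 h. Both genes were above normal in all 6 ischemia libraries, with log2 differences at 4 h of 2.29 (SE 0.45) and 1.25 (SE 0.24) and adjusted p-values of 0.0981 and 0.0979 in edgeR, and 6.99e-05 and 0.000316 in DESeq2. At 1 h Adm, a vessel-dilating peptide, stood at 2.10 (SE 0.49, adjusted p 0.188) and Bnip3, which marks mitochondria for removal, at 1.60 (SE 0.36, adjusted p 0.186), and DESeq2 called both (adjusted p 0.0026 and 0.0021). Bnip3 had its 3 highest levels in the neuron-rich libraries, at 152 to 227 CPM against 40.0 to 137 CPM. Ccng2, a brake on the cell cycle, stood lower at 4 h (-1.36, SE 0.36, adjusted p 0.184), and Hilpda, a lipid droplet protein, was lower at 4 h than at 1 h (-1.03, SE 0.41, adjusted p 0.856). Among 8 regulators of glycolytic genes only Myc had an unadjusted p under 0.05, at 1 h (1.66, SE 0.58, adjusted p 0.261), where 16.7% of all genes reached that p. Its groups overlapped, as the lowest 1 h library, 22.1 CPM, lay below the highest normal one, 28.2 CPM.

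**Figure D5:**
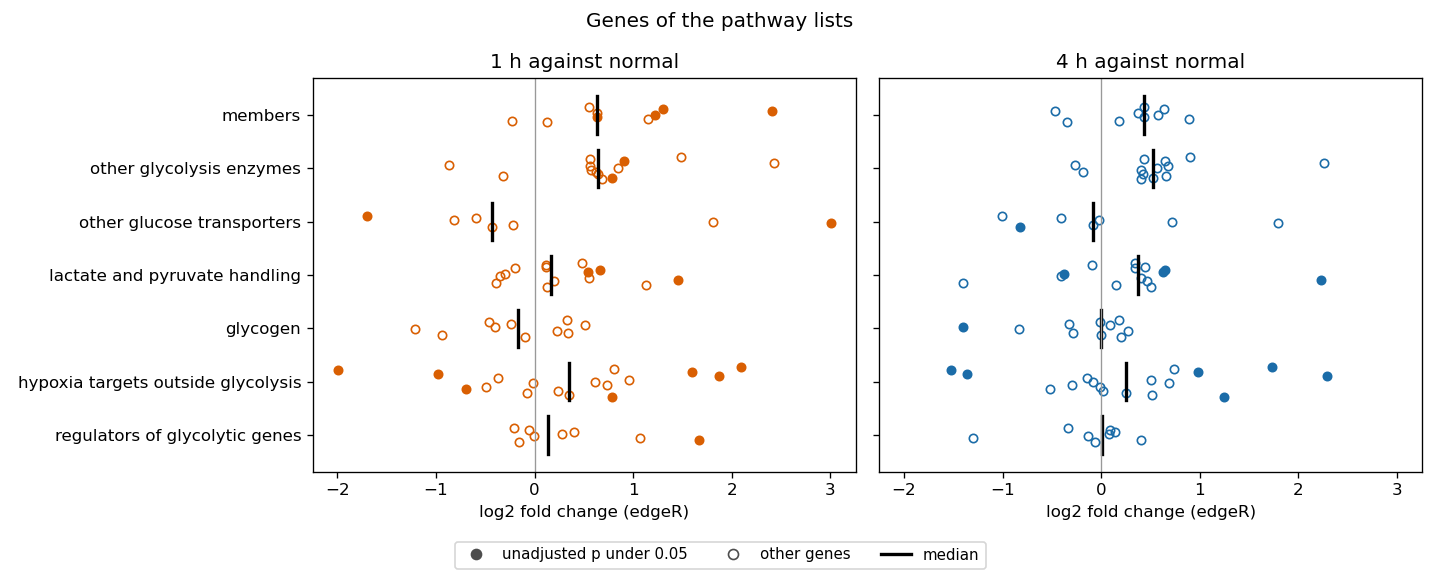
Log2 fold change (x axis, edgeR) of each tested gene of 7 lists (rows) at 1 h (left) and 4 h (right) against normal. Filled points had an unadjusted p under 0.05 and black bars are medians. The genes described here and the other glycolysis enzymes have medians of 0.63 and 0.64 at 1 h, and no point was called after adjustment.

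Ratios of 2 related genes within a library do not depend on how libraries are scaled. Over 7 pairs and 3 contrasts, 21 exact two-sided permutation tests gave adjusted p-values of 0.875 to 1, and 3 libraries against 3 cannot give an exact p below 0.1. The ratio of Ldha to Ldhb, the subunit that favours lactate use, was a log2 of 1.31 ± 0.64 (SD) in the normal group and 1.86 ± 0.28 in both ischemia groups together, a difference of 0.55 (exact permutation p 0.107). Pfkfb3 to Pfkfb4 differed by 1.85 at 1 h (exact permutation p 0.2), with Pfkfb4 at only 2.30 to 5.95 CPM. Hk2 to Hk1 differed by 1.01 at 1 h and -0.66 at 4 h (exact permutation p 0.7 and 0.5), and Slc16a3 to Slc16a1, the lactate carrier of most tissues, by -1.52 and 0.48 (0.3 and 0.8, exact permutation test). Pfkl to Pfkm, the muscle-type subunit, differed by -0.005 at 1 h and 0.025 at 4 h (exact permutation p 1 and 0.9). Aldoa to Aldoc, the aldolase of brain, differed by -1.16 and -0.43 (exact permutation p 0.4 and 0.8). The ratio of Slc2a1 to Slc2a3 rests on 0 to 14 counts of Slc2a3 and is not read.

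For the transporter, the inducible hexokinase, the activating enzyme and the lactate dehydrogenase, the genes with the most similar pattern over the 9 libraries were sought among 11271 genes, by the root mean square difference of log2 CPM after centring each gene. Nearest to Slc2a1 were Mlec, Mrc1 and Slc39a9 (0.24, 0.26 and 0.26). Mrc1 is a receptor of tissue macrophages and one of the macrophage markers. Nearest to Hk2 were Thbs1, Runx1 and Ch25h at the larger distances of 0.70, 0.80 and 0.81. Nearest to Pfkfb3 were Ssh2, Plaur and Vps13a (0.26, 0.28 and 0.28), and nearest to Ldha were Stx7, RGD1562690 and Pebp1 (0.15, 0.17 and 0.19).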

How the data were processed

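RNA of 9 rat arteries was sequenced on an Illumina HiSeq X, per the labels. The authors deposited raw counts per gene symbol in 1 table. The submitters' processing notes name HISAT2, the study's methods also describe Agilent arrays, and the version, counting program, strand setting and genome build are not given in the sources used here. The 37203 rows were filtered with filterByExpr (15482 kept), scaled by TMM and tested in R 4.3.3 with edgeR 4.0.16 (quasi-likelihood F-test, group as the only term, all 9 libraries). The study's random variance F-test is for arrays and was not used. P-values were adjusted by Benjamini-Hochberg over all genes tested, and a call needed an adjusted p under 0.05 and a fold change over 1.5. The common biological coefficient of variation was 51.6%. SE is the size of the log2 difference over the root of F. The scores are mean log2 CPM with a prior count of 2, and ratios added 0.5 to counts. DESeq2 1.42.0 and the other alternatives are described in the closing section. The edgeR test was also run on simulated counts of independent libraries with no differences in tissue makeup. That run does not cover the makeup differences seen here. The members and lists were chosen with earlier results of these data known. Every member is named, and pathway genes are named at an unadjusted p under 0.05 and a mean of at least 5 CPM, up to 4 per list and contrast. No library was a copy of another (lowest chi-square per degree of freedom 31.7).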

Additional observations from a re-analysis of the deposited data

Results flagged for a closer look

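Hk2 had a log2 difference of -2.87 for 4 h minus 1 h. The direct test of the stages in edgeR gave an unadjusted p of 0.0148, which fails adjustment over all genes (adjusted p 0.856), so Hk2 was not called. Hk2 measured 13.6, 137 and 58.4 CPM at 1 h and 9.01, 4.81 and 14.7 CPM at 4 h, so the stages overlapped by 1 library on each side. Without 1 h replicate 2 the difference was -1.92 (unadjusted p 0.065), and without the 3 neuron-rich libraries it was -4.30 (unadjusted p 0.0064), with a single library left at 1 h.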

How the results depend on the processing

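None of the 9 genes was called under any alternative. DESeq2 called 702 of all genes at 1 h, 606 at 4 h and 1025 in both together, against 9, 14 and 66 by edgeR, and 18 values of the named pathway genes passed the test there that did not in edgeR. Counts of these genes at an unadjusted p under 0.05 moved more. At 1 h they were 2 with library size only, 0 with the neuron score and 1 with the adipocyte score. The share of all genes at that p moved too, to 13.9%, 9.70% and 12.7% in these fits, from 16.7% in the main fit. Leaving out the 3 neuron-rich libraries, with a single library left at 1 h, took the median to 0.27. At 4 h it was 1 with the replicate block (11.4% of all genes). In both ischemia groups together it was 0 with library size only, either score or without those libraries, 5 with DESeq2 and 4 with the replicate block. Deviations of same-numbered libraries from their group means correlated from -0.65 to 0.66. That range shows no common pairing by replicate number. It cannot exclude one, because the libraries also differed in tissue makeup. Library size alone moved the median of all genes to -0.15 at 4 h. Leaving out 1 library gave 0 to 5 of the 9 genes at that p at 1 h (8.04% to 23.5% of all genes) and 0 to 1 at 4 h (9.61% to 12.6%). It gave 0 to 4 in both together (11.1% to 19.3%) and 0 to 2 between the stages (0.806% to 20.7%). The medians were, in that order, 0.52 to 0.88, 0.21 to 0.62, 0.46 to 0.70 and -0.70 to -0.18.

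Signs turned as follows. With the neuron score Slc2a1 became -0.22 and Slc16a3 0.12 at 1 h, Slc16a3 0.18 in both groups together, and between the stages Pfkl 0.17, Aldoa 0.068, Pgk1 0.39 and Ldha 0.065. With the adipocyte score Slc16a3 became 0.57 at 1 h, 0.52 in both together and -0.10 between the stages, Hk2 0.020 at 4 h, and Pfkl 0.082 and Pgk1 0.26 between the stages. Without the 3 neuron-rich libraries, an alternative chosen after seeing the data, Slc16a3 became 0.15 at 1 h and 0.20 in both together, Hk1 -0.065 at 4 h, and Pfkl 0.080, Aldoa 0.22 and Pgk1 0.040 between the stages. With the replicate block Slc16a3 became 0.047 in both together. The cause was not tested.

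Without a sign change, leaving out 1 library gave ranges at 1 h of 1.45 to 3.50 for Hk2, 0.89 to 1.86 for Pfkfb3, 0.76 to 1.47 for Pgk1, 0.38 to 0.88 for Ldha, 0.37 to 0.76 for Aldoa, 0.45 to 0.83 for Pfkl and 1.10 to 1.57 for Hk1. Leaving out 1 library turned Slc2a1 (-0.18 to 0.55 at 1 h, -0.63 to 0.086 at 4 h, -0.41 to 0.32 together), Slc16a3 (-0.63 to 0.12, -0.22 to 0.53 and -0.43 to 0.32), Hk1 (-0.079 to 0.91) and Hk2 (-0.92 to 0.62) at 4 h, and Aldoa (-0.30 to 0.066) and Pgk1 (-0.95 to 0.13) between the stages. Ratios that turned were Hk2 to Hk1 (-0.088 to 2.07 at 1 h, -0.43 to 0.82 together), Slc16a3 to Slc16a1 (-0.87 to 1.41 at 4 h, -1.87 to 0.35 together), Pfkl to Pfkm (-0.21 to 0.15, -0.24 to 0.21 and -0.20 to 0.16), Aldoa to Aldoc (-1.21 to 0.10 at 4 h) and Pfkfb3 to Pfkfb4 (-0.027 to 1.45 at 4 h). Without normal replicate 3 the ratio of Ldha to Ldhb in both ischemia groups together was 0.92 (unadjusted exact permutation p 0.0357), without normal replicate 2 it was 0.32 (0.357) and without normal replicate 1 it was 0.41 (0.321). Slc2a3 and Slc16a3 rest on few counts, and the interval of Slc16a3 reaches -1.36 at 1 h and 1.32 at 4 h. The ratio of Slc2a1 to Slc2a3 could not be computed with no added count, because 1 library had 0 counts of Slc2a3.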
